A study of Mus musculus with 6 samples.

Results

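The CpGs of mitochondrial DNA described here were all rows of the mitochondrial chromosome with at least 10 reads in each of 6 libraries of mouse pluripotent stem cells. They were 12 CpGs, which were also all the mitochondrial CpGs with any read, out of 957681 CpGs that reached 10 reads in each library and 1531642 with a read in any library. The mouse mitochondrial genome (chrM of mm10, 16299 bp) holds 287 CpGs, so 4.18% of them were covered. The level of a CpG is the share of its reads called methylated, in percent. The number of reads on CpGs ranged from 53694199 to 96534037 per library, of which between 0.245% and 0.629% lay on these 12 CpGs. Near the starts of 5 marker genes of pluripotent cells (Nanog and Pou5f1 among them) only 1 CpG of 1 gene had the required reads, so the labelled cell types could not be checked here.

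The libraries came from reduced representation bisulfite sequencing (RRBS), which reads the ends of MspI restriction fragments after bisulfite treatment, which turns unmethylated cytosine into uracil and leaves methylated cytosine as it is. It was used on 3 types of cells with 2 replicate libraries each. The C-iPSCs were induced from fibroblasts with chemicals and the 4F-iPSCs from fibroblasts with transcription factors, both at passage 5 to 10, and the mESCs were the embryonic stem cell line E14 at passage 20 to 30. All 6 libraries came from male cells kept in medium with serum, LIF, and the inhibitors of 2i. The labels give mitomycin C-treated fibroblast feeders, removed on gelatin before collection, while the study's methods name gelatin-coated plates and no feeders. Mitochondrial DNA of any feeder cells that remained cannot be told apart from that of the stem cells. No label says that the replicates were separate cultures, so the tests measure the spread between these libraries, which may be technical.

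Mitochondrial DNA is a circular molecule present in many copies per cell, which encodes subunits of the respiratory chain together with the ribosomal and transfer RNAs that translate them. It has no nucleosomes, and whether it carries CpG methylation in mammals has long been debated, in part because a cytosine that escapes bisulfite conversion reads as methylated. For the same reason it has been used as an internal check of conversion. In the counts analysed here a methylated cytosine and an unconverted one cannot be told apart, and "methylated" means only that the read kept a C.

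MspI cuts at CCGG, and the mitochondrial genome has 11 such sites. Only 3 fragments between neighbouring sites were read. The 68-bp fragment (chrM:3332-3403, given with both sites) lies in mt-Nd1 (2751 to 3707, plus strand), which encodes a subunit of complex I. The 162-bp fragment (chrM:6112-6277) and the 114-bp fragment (chrM:6274-6391) share a site and lie in mt-Co1 (5328 to 6872, plus strand), which encodes the catalytic subunit of cytochrome c oxidase. All 12 CpGs are thus in the coding sequence of these genes, 5 in mt-Nd1 and 7 in mt-Co1, and the remaining fragments, of 387 bp to 7342 bp, gave no member between their sites. A CpG is named here by the position of its C on the plus strand. Of the 12, 5 are the CpG of an MspI site itself and 7 lie between sites.

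The sequences around the 5 site CpGs are shown first because the mitochondrial levels fell into high and low ones by whether the CpG was inside the enzyme's site. They are RefSeq's mitochondrial sequence of GRCm38, plus strand, 5′ to 3′, with the MspI site in capitals.
CpG 3333, chrM:3321-3346: gcagaaacaaaCCGGgcccccttcga
CpG 3401, chrM:3389-3414: agaatacgcagCCGGcccattcgcgt
CpG 6113, chrM:6101-6126: tacttactactCCGGaaaaaaagaac
CpG 6275, chrM:6263-6288: cgcaattcctaCCGGtgtcaaagtat
CpG 6389, chrM:6377-6402: tggtggtctaaCCGGaattgttttat

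The same is shown for 3 of the CpGs between sites, with the CpG in capitals. The first of them is the least methylated member, the second is the one whose strands differed most, and the third is the most deeply read one of mt-Co1 between sites.
CpG 3386, chrM:3374-3399: atcagggtttaaCGtagaatacgcag
CpG 6231, chrM:6219-6244: gatgtagacacaCGagcttactttac
CpG 6311, chrM:6299-6324: tgcaaccctacaCGgaggtaatatta

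Methylated reads lay almost wholly at the MspI sites. The 5 site CpGs held between 29.7% and 30.8% of the mitochondrial reads of a library but between 93.1% and 96.0% of its methylated reads. Their joint level was 9.65% and 17.3% in C-iPSC replicates 1 and 2, 10.3% and 24.9% in 4F-iPSC replicates 1 and 2, and 16.8% and 10.2% in mESC replicates 1 and 2. The joint level of the 7 CpGs between sites, in the same order, was 0.277%, 0.342%, 0.290%, 0.516%, 0.314%, and 0.327%. Every library was thus higher at the sites, by 14.5 ± 5.90 percentage points (SD, n = 6; two-sided exact sign-flip permutation test over libraries, p = 0.03125, the smallest that 6 libraries can give), and the ratio of both levels lay between 31.3 and 53.5. This contrast was made after the values were seen.

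The site CpGs of the 68-bp fragment are read at the first base of the plus-strand read (CpG 3333) and of the minus-strand read (CpG 3401). CpG 3333 was methylated in 9.54% and 17.1% of reads in the C-iPSC libraries, 9.90% and 25.5% in the 4F-iPSC libraries, and 17.8% and 10.2% in the mESC libraries, from 22913 to 58718 reads each. CpG 3401, at the other end, gave 8.96% and 15.8%, 9.75% and 24.9%, and 16.7% and 9.79%, from 14708 to 40574 reads. Both ends put the 6 libraries in the same order. At each, C-iPSC replicate 2, 4F-iPSC replicate 2, and mESC replicate 1 were high and the other replicate of the same cell type was low, so the cell types overlapped.

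In mt-Co1, CpG 6389, the far end of the 114-bp fragment, read 9.58% and 16.0% in the C-iPSC libraries, 10.3% and 20.4% in the 4F-iPSC libraries, and 12.9% and 10.3% in the mESC libraries. CpG 6275 is the only site CpG read from both sides. On the plus strand, where it opens the 114-bp fragment, it was methylated in 11.6%, 22.9%, 12.7%, 31.7%, 21.8%, and 12.03% of reads (C-iPSC, 4F-iPSC, and mESC replicates 1 and 2 in turn). On the minus strand, where it closes the 162-bp fragment, the values were 8.06%, 13.2%, 8.34%, 18.7%, 11.1%, and 8.43%. The plus strand of the same CpG was the higher one in each of the 6 libraries. CpG 6113 had only 29 to 53 reads per library, all on the plus strand, and its level ranged from 0% (0 of 29 reads in C-iPSC replicate 1; 95% Wilson interval up to 11.7%) to 36.4% (16 of 44 in C-iPSC replicate 2; 23.8% to 51.1%). Such intervals cover counting error only, since PCR copies of a molecule were not separated.

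Between sites the levels were low, with all 7 CpGs under 1% over the 6 libraries. Over the 6 libraries, CpG 3386 was lowest at 0.246% of 335940 reads (95% Wilson interval 0.230% to 0.264%), followed by CpG 6263 at 0.261% and CpG 3344 at 0.284%. CpG 3395, which had the most reads of all members (336375), was at 0.359%, CpG 6131 at 0.405%, and CpG 6311 at 0.430%. CpG 6231 was highest at 0.703% (0.639% to 0.772%). The lowest and highest single values between sites were 0.173% at CpG 6263 in C-iPSC replicate 1 and 1.05% at CpG 6231 in 4F-iPSC replicate 2. The levels of all 7 were highest in 4F-iPSC replicate 2, the library that was also highest at 4 of the 5 site CpGs; at CpG 6113 C-iPSC replicate 2 was highest.

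**Figure D1:**
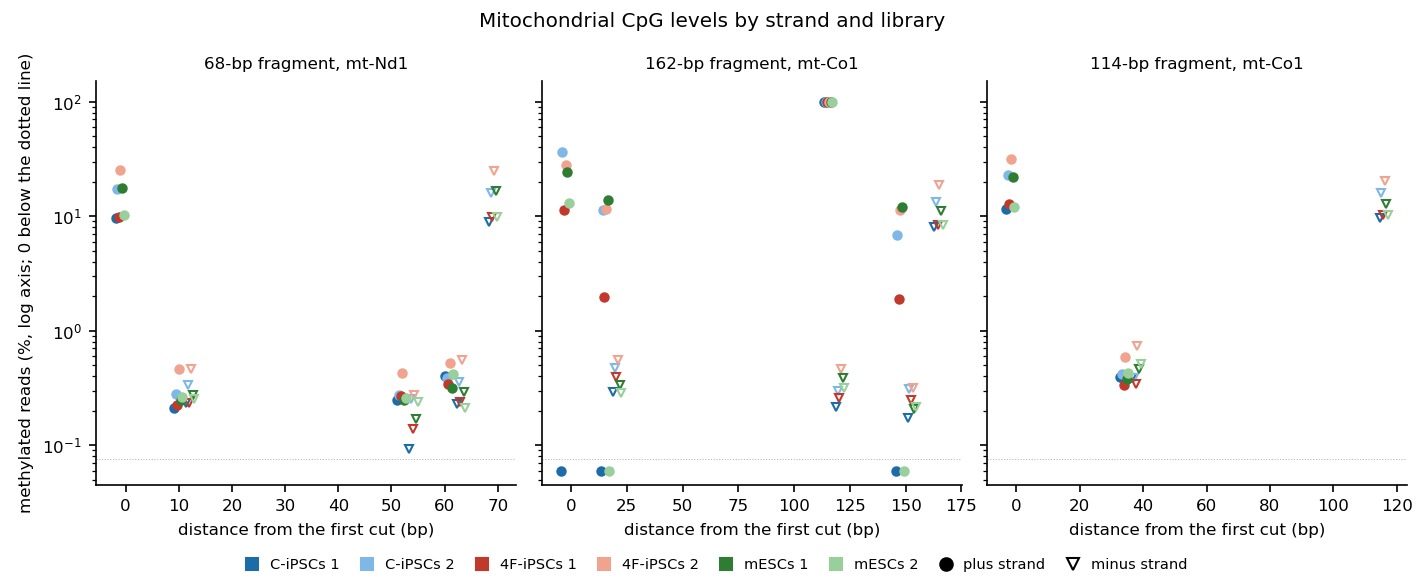
Level of each mitochondrial CpG (percent of reads called methylated, log axis) against its distance from the first MspI cut of its fragment, for each library (colour) on the plus (filled circles) and minus strand (open triangles); values of 0 are drawn below the dotted line. The first and last CpG of each fragment lie in MspI sites and sit near or above 8% wherever they have over 1000 reads, while CpGs between sites stay under 1% except on the plus strand of the 162-bp fragment, which had 27 to 53 reads.

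Whether the strands differed was tested on the 8 CpGs with at least 10 reads on each strand in each library. Their plus-strand level was above the minus-strand level in all 6 libraries, by 1.62 ± 0.701 percentage points (SD, n = 6; two-sided exact sign-flip permutation test, p = 0.03125). The site CpG 6275 made up 11.2% to 15.3% of the plus-strand reads but 5.13% to 10.8% of the minus-strand reads of these CpGs. With each CpG given the same share on both strands (Mantel-Haenszel weights, chosen after the data had been seen), the difference was 0.975 percentage points, between 0.592 and 1.68 in the 6 libraries (p = 0.03125 by the same permutation test). At CpG 6275, the only site CpG of the 8, plus-strand reads come from the 114-bp fragment and minus-strand reads from the 162-bp fragment. Strand and fragment thus cannot be told apart there. Nuclear site CpGs were also higher on the plus strand near 114 bp than on the minus strand near 162 bp in all 6 libraries. In 4F-iPSC replicate 2 they were at 16.8% against 13.3%, and in 4F-iPSC replicate 1 at 9.09% against 8.58%. With each mitochondrial CpG counting once, whatever its reads, the strand difference was 14.8 percentage points with the plus strand higher, since CpG 6231, with 27 to 46 plus-strand reads per library, then weighs as much as the others. Over the 7 CpGs between sites the plus strand was higher in 6 of 6 libraries, by 0.0678 ± 0.0353 percentage points (SD, n = 6; exact sign-flip permutation test, p = 0.03125). Without the 3 of them on the 162-bp fragment, a choice made after the data had been seen, the difference was 0.0301 percentage points, with p = 0.25 by the same permutation test. On those 4 CpGs the plus strand was lower in C-iPSC replicate 2 (0.3259% against 0.3263%), 4F-iPSC replicate 2 (0.488% against 0.492%), and mESC replicate 1 (0.289% against 0.294%), which were the libraries with high site CpGs.

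The 162-bp fragment was read almost only from its minus end. It had between 7208 and 12968 minus-strand reads per library at CpG 6275 but between 29 and 53 plus-strand reads at CpG 6113, or 0.280 to 0.597 plus reads for each 100 minus reads. The 68-bp fragment had 145 to 156 and the 114-bp fragment 98.1 to 138. Hence the level of CpG 6113, and the plus-strand levels of CpGs 6131, 6231, and 6263, rest on few reads.

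On these few plus-strand reads CpG 6231 was methylated without exception. The counts were 27 of 27 and 43 of 43 reads in C-iPSC replicates 1 and 2, 46 of 46 and 43 of 43 in 4F-iPSC replicates 1 and 2, and 41 of 41 and 37 of 37 in mESC replicates 1 and 2. On the minus strand the same CpG was methylated in 189 of 60403 reads (0.313%), with libraries between 0.214% and 0.460%. Of the 0.703% of methylated reads at CpG 6231 over both strands, 237 of 426 reads were thus plus-strand reads. On the plus strand, the neighbouring CpG 6131 of the same fragment was methylated in 17 of 250 reads (6.80%, 95% Wilson interval 4.29% to 10.6%). CpG 6263 was methylated in 14 of 250 (5.60%, 3.36% to 9.18%). On the minus strand they were at 0.378% and 0.240%. By library, the plus-strand counts at CpG 6131 were 0 of 30, 5 of 44, 1 of 51, 5 of 43, 6 of 43, and 0 of 39 (C-iPSC, 4F-iPSC, and mESC replicates 1 and 2 in turn). At CpG 6263 they were 0 of 30, 3 of 44, 1 of 53, 5 of 44, 5 of 42, and 0 of 37. Most methylated plus-strand reads thus came from C-iPSC replicate 2, 4F-iPSC replicate 2, and mESC replicate 1.

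Both mt-Co1 fragments have a near-identical nuclear relative. BLAST found 8 nuclear matches for the 162-bp fragment and 6 for the 114-bp fragment, of which 1 each spanned the whole fragment, and the partial ones were not examined. The full-length copy lies on chromosome 2 (minus strand, GRCm38), at chr2:22588698-22588863 for the 162-bp fragment with 4 mismatches in its whole length (97.59% identity) and at chr2:22588584-22588701 for the 114-bp fragment with 3 (97.458%); the 68-bp fragment had no nuclear match at an E-value of 1e-05. The differences in the 162-bp fragment, written as mitochondrial base, position on chrM, and base of the copy on the same strand, are T6164C, T6173C, A6218G, and C6231T. A pair of 50-base reads from the fragment's ends covers only C6231T, which is CpG 6231 itself. The sequences around it are shown as they are and after every C of the strand is written as T, with that base in capitals.
mtDNA, chrM:6220-6243: atgtagacacaCgagcttacttta
copy, chr2:22588732-22588755: atgtagacacaTgagcttacttta
mtDNA, C as T: atgtagatataTgagtttatttta
copy, C as T: atgtagatataTgagtttatttta

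With every C read as T, plus-strand reads of mtDNA and reads of the copy were the same in the parts covered (0 differences), while minus-strand reads differed at 1 base. A plus-strand read of mtDNA that kept its C at CpG 6231 differed from an unmethylated read of the copy at that base. In the 114-bp fragment (T6317A, C6350T, and T6383C) 1 difference remained on the plus strand and 3 on the minus strand. The authors kept only uniquely mapped pairs. The number of plus-strand reads for each 100 minus-strand reads at CpG 6231 was 0.262, 0.460, 0.356, 0.600, 0.390, and 0.364 (C-iPSC, 4F-iPSC, and mESC replicates 1 and 2 in turn). The minus-strand level of the CpGs between sites was 0.222%, 0.331%, 0.251%, 0.479%, 0.298%, and 0.279% in the same libraries, so both quantities put the 6 libraries in the same order. The part of read mapping in these values was not tested.

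**Figure D2:**
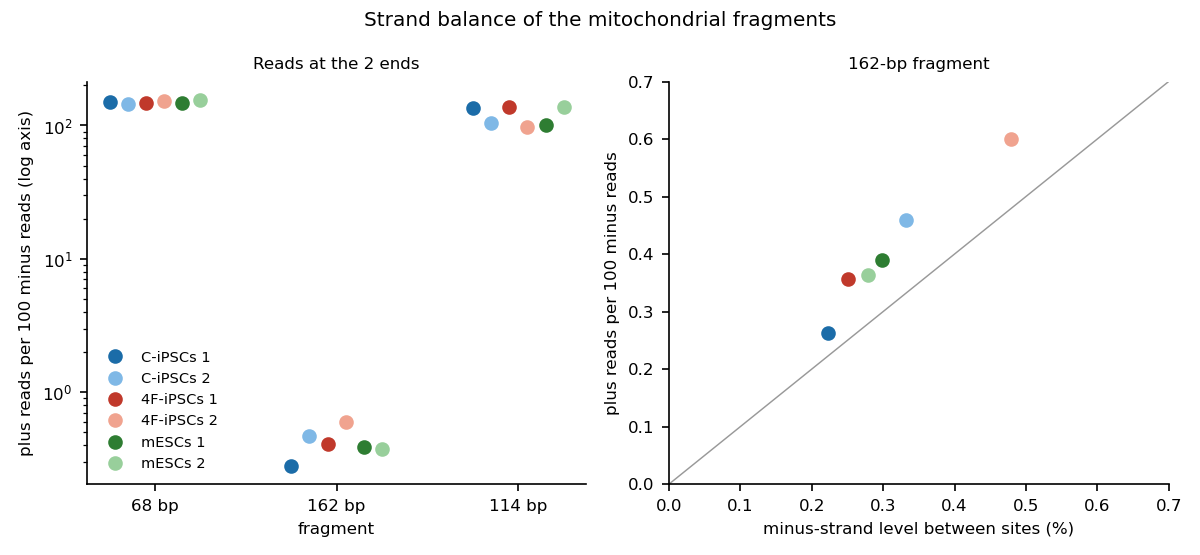
Left, plus-strand reads for each 100 minus-strand reads at the ends of the 3 mitochondrial fragments (log axis), per library. Right, the same quantity at CpG 6231 of the 162-bp fragment against the minus-strand level of the 7 CpGs between sites, with the line of equality; the values run from 0.262 to 0.600 and from 0.222% to 0.479%.

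The copy itself was read as a separate locus and was methylated. Its 5 CpGs with reads, on chromosome 2, had between 22 and 153 reads per library and levels between 34.6% and 94.3%. Together they were at 65.9% and 79.9% in C-iPSC replicates 1 and 2, 87.6% and 87.6% in 4F-iPSC replicates 1 and 2, and 51.4% and 61.7% in mESC replicates 1 and 2. Over these 5 CpGs of the copy both 4F-iPSC libraries were highest and both mESC libraries lowest. At the same 5 positions in mtDNA, both 4F-iPSC libraries were above both mESC libraries at CpGs 6131 and 6263 (as at 44.7% of all CpGs, and at CpG 6263 by less than the digits given below) and overlapped with them at CpGs 6275, 6311, and 6389, and they overlapped with the C-iPSC libraries at all 5. At the position of CpG 6131 the copy had 29 of 35, 19 of 22, 34 of 41, 33 of 35, 9 of 23, and 16 of 28 reads methylated. There and at the position of CpG 6263, the copy was read only on the plus strand of chromosome 2, which matches the minus strand of mtDNA.

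The comparison of cell types asks whether the way of reprogramming left a mark on mitochondrial DNA as read here. Over all 12 CpGs, the level was 3.12% and 5.38% in the C-iPSC libraries, 3.33% and 7.90% in the 4F-iPSC libraries, and 5.39% and 3.29% in the mESC libraries. The mean was 4.25 ± 1.60% in C-iPSCs, 5.62 ± 3.23% in 4F-iPSCs, and 4.34 ± 1.48% in mESCs (SD, n = 2 each). The differences were smaller than the spread between replicates, with -0.0942 percentage points for C-iPSCs minus mESCs, 1.27 for 4F-iPSCs minus mESCs, and 1.37 for 4F-iPSCs minus C-iPSCs, and a two-sided exact permutation test gave p = 0.667 for each of the 3 comparisons (adjusted 0.667; 2 libraries against 2 cannot go below 0.333). Leaving out 4F-iPSC replicate 2 turned both 4F-iPSC differences around, to -1.01 and -0.914 percentage points, and the difference of C-iPSCs and mESCs was 1.04 without C-iPSC replicate 1 and 0.952 without mESC replicate 1.

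The 2 classes of CpG gave no separation of the cell types on their own either. At the sites the means were 13.5 ± 5.41% in C-iPSCs, 17.6 ± 10.3% in 4F-iPSCs, and 13.5 ± 4.62% in mESCs. Between sites they were 0.309 ± 0.0460%, 0.403 ± 0.160%, and 0.320 ± 0.00932%. In each class the libraries of every pair of cell types overlapped, and the lowest exact permutation p of its 3 comparisons was 0.667.

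Single CpGs were compared in 3 ways, C-iPSCs with mESCs, 4F-iPSCs with mESCs, and 4F-iPSCs with C-iPSCs, and counts are given in that order. None was a strong call. The study's criterion, a difference in level above 0.333 with p under 0.05 by Fisher's exact test (two-sided, reads of replicates summed), called 0, 0, and 0 of the 12 mitochondrial CpGs, against 2.40%, 13.7%, and 1.03% of all 957681 CpGs. By the same exact test 3, 8, and 7 of the 12 had an unadjusted p under 0.05 at any size of difference, against 26.5%, 37.5%, and 24.4% of all CpGs, and 2, 6, and 4 an adjusted p under 0.05, against 20.5%, 34.9%, and 16.6%. With a difference above 0.1, 0, 0, and 0 were called, against 24.8%, 35.7%, and 19.3% of all CpGs.

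A quasi-binomial model was then fitted across all CpGs, with a dispersion shared over CpGs by limma and Benjamini-Hochberg adjustment. It called 1, 4, and 2 of the 12, against 6.46%, 28.7%, and 2.76% of all CpGs in either direction. At an unadjusted p under 0.05 it was 2, 5, and 4 of the 12, against 15.8%, 33.0%, and 11.6%. Those called after adjustment were all site CpGs and higher in the cell type named first, a direction in which 6.41%, 28.5%, and 2.71% of all CpGs were called. In C-iPSCs and mESCs the CpG was 6389 (13.7% against 12.02%, adjusted p = 0.00295 by this model). In 4F-iPSCs and mESCs they were CpGs 3333, 3401, 6275, and 6389, and in 4F-iPSCs and C-iPSCs they were CpGs 3333 and 3401. These calls rested on the shared dispersion, which was 2.72, 2.11, and 2.87, while the dispersion of the called CpGs themselves lay between 172 and 1621. With each CpG's own dispersion, an alternative added after the data had been seen, 0 of 12 were called in each comparison (0 also at an unadjusted p under 0.05), as were 0 of all CpGs with 2 residual degrees of freedom.

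The levels of both cell types were fully separated at 1, 2, and 0 of the 12 CpGs, against 36.9%, 47.3%, and 34.9% of all CpGs. The first was CpG 6311, lower in both C-iPSC libraries than in both mESC libraries (4.26% of all CpGs were separated in this direction), at 0.389% and 0.401% against 0.422% and 0.459%. The others were CpGs 6131 and 6263, higher in both 4F-iPSC libraries than in both mESC libraries (44.7% of all CpGs). At CpG 6131 the levels were 0.396% and 0.627% against 0.389% and 0.283%, and at CpG 6263 they were 0.2526% and 0.385% against 0.2526% and 0.215%, so the separation at the latter lay below the digits given.

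Next, the mitochondrial levels were set beside nuclear CpGs. The first reference was the 275317 autosomal CpGs within 250 bp of a transcript start with a high-CpG promoter (HCP), a class that is mostly unmethylated. Their level was 2.00% and 2.68% in the C-iPSC libraries, 3.09% and 4.37% in the 4F-iPSC libraries, and 2.17% and 2.06% in the mESC libraries. The 12 mitochondrial CpGs were higher in all 6 libraries, by 2.01 ± 1.32 percentage points (SD, n = 6; two-sided exact sign-flip permutation test, p = 0.03125), and by 4.04 percentage points with each CpG counting once. The direction depended on the site CpGs. Between sites, mitochondrial CpGs were lower than HCP CpGs in all 6 libraries, by -0.886 ± 0.570 percentage points (exact permutation p = 0.03125), and at the sites they were higher in 3 of 6 libraries, by 1.64 ± 2.51 percentage points (exact permutation p = 0.25). Against the CpGs of housekeeping promoters, all 12 together were at -0.216 percentage points (exact permutation p = 0.688). One of these promoters, that of Gpi1, which encodes a glycolytic enzyme, was at 34.1% between sites, while 18 of 21 were under 1%. Without it, an alternative added after the data had been seen, the mitochondrial CpGs were higher by 2.20 percentage points (exact permutation p = 0.03125).

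The second reference was the autosomal CpGs with a level under 1% in the summed reads of the other 5 libraries, chosen anew for each library (349592 to 363230 CpGs). They were at 0.385%, 0.483%, 0.451%, 0.657%, 0.382%, and 0.440% (C-iPSC, 4F-iPSC, and mESC replicates 1 and 2 in turn). The 12 mitochondrial CpGs exceeded this by 4.27 ± 1.79 percentage points, in 6 of 6 libraries (exact permutation p = 0.03125). Such a choice by single CpGs left almost no site CpGs, between 847 and 885 per library, and without the site CpGs the mitochondrial level was the lower one in all 6 libraries, by -0.122 percentage points on average (exact permutation p = 0.03125). The size of this gap depended on the limit of 1%. Autosomal CpGs with no methylated read in the other 5 libraries were at 0.332%, 0.426%, 0.384%, 0.579%, 0.337%, and 0.389% in the same order. The mitochondrial level between sites was below these too in all 6 libraries, but by less in each.

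To compare like with like, nuclear MspI fragments of 40 to 250 bp were chosen by the CpGs between their sites alone (under 1% in the other 5 libraries; 31480 to 32283 fragments per library), so that their site CpGs played no part in the choice. Both levels were then read in the library left out. Between sites these fragments were at 0.395%, 0.501%, 0.449%, 0.681%, 0.399%, and 0.453%. Their site CpGs were at 9.31%, 13.8%, 9.76%, 18.9%, 12.5%, and 9.93%. Nuclear DNA that was unmethylated between its sites was thus also higher at the sites, with a ratio of both levels from 21.7 to 31.2, which was below the mitochondrial ratio in each library (31.3 to 53.5).

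Measured in this way, mitochondrial CpGs between sites were lower than nuclear ones in all 6 libraries, by -0.135 ± 0.0311 percentage points, and mitochondrial site CpGs were higher in all 6, by 2.49 ± 2.42 percentage points (SD, n = 6; two-sided exact sign-flip permutation test, p = 0.03125 for each). The fragments were allowed levels under 1% between sites, and the gap there was smaller against the single CpGs with no methylated read given above. The difference at the sites was 0.306 to 0.545 percentage points in C-iPSC replicate 1, 4F-iPSC replicate 1, and mESC replicate 2, and 3.54 to 5.91 percentage points in the other 3 libraries. These comparisons were added after the data had been seen.

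**Figure D3:**
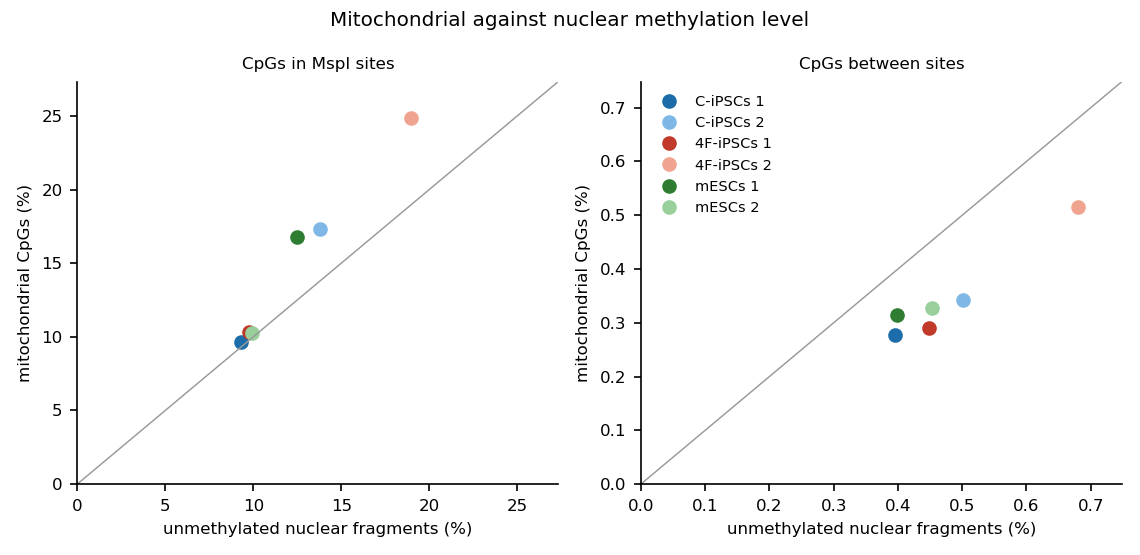
Level of mitochondrial CpGs against that of nuclear MspI fragments chosen as unmethylated between their sites in the other 5 libraries, for site CpGs (left) and CpGs between sites (right), 1 point per library; the line marks equality. At the sites all 6 libraries lie above the line, from 9.65% against 9.31% to 24.9% against 18.9%, and between sites all 6 lie below it.

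Each site CpG is the first base of its read and no other CpG is, so being in a site and being read first cannot be told apart. In the nuclear fragments the level fell from 9.31% to 18.9% at the first base of the read to between 0.645% and 1.65% at base 4 and between 0.564% and 1.14% at base 5, and from base 6 to base 50 it stayed between 0.325% and 0.765% over all libraries. No CpG can lie at bases 2 and 3 of a read that starts at a site. Within the first 50 bases from their strand's own end, and with at least 1000 reads, mitochondrial CpGs between sites came at base 7, 12, 13, 16, 37, or 45. There they were below the nuclear level at the same base in 35 of 36 cases (6 CpGs by strand, 6 libraries). A further 5 CpGs by strand lay past base 50, where the mate reads them from the far end, and 26 of their 30 values were below the library's nuclear level between sites. The 4 above it were CpG 3395 on the plus strand in C-iPSC replicate 1 (0.402% against 0.395%) and CpG 6311 on the minus strand in 4F-iPSC replicate 2 (0.730% against 0.681%), mESC replicate 1 (0.463% against 0.399%), and mESC replicate 2 (0.508% against 0.453%). The lowest was CpG 3386 on the minus strand, at base 16, with 0.0917% in C-iPSC replicate 1 and 0.138% in 4F-iPSC replicate 1. At the first base, 21 of 30 mitochondrial values were above the nuclear ones, with CpG 6275 on the minus strand giving 6 of the 9 below, by up to 12.8 percentage points at CpG 6275 on the plus strand in 4F-iPSC replicate 2.

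**Figure D4:**
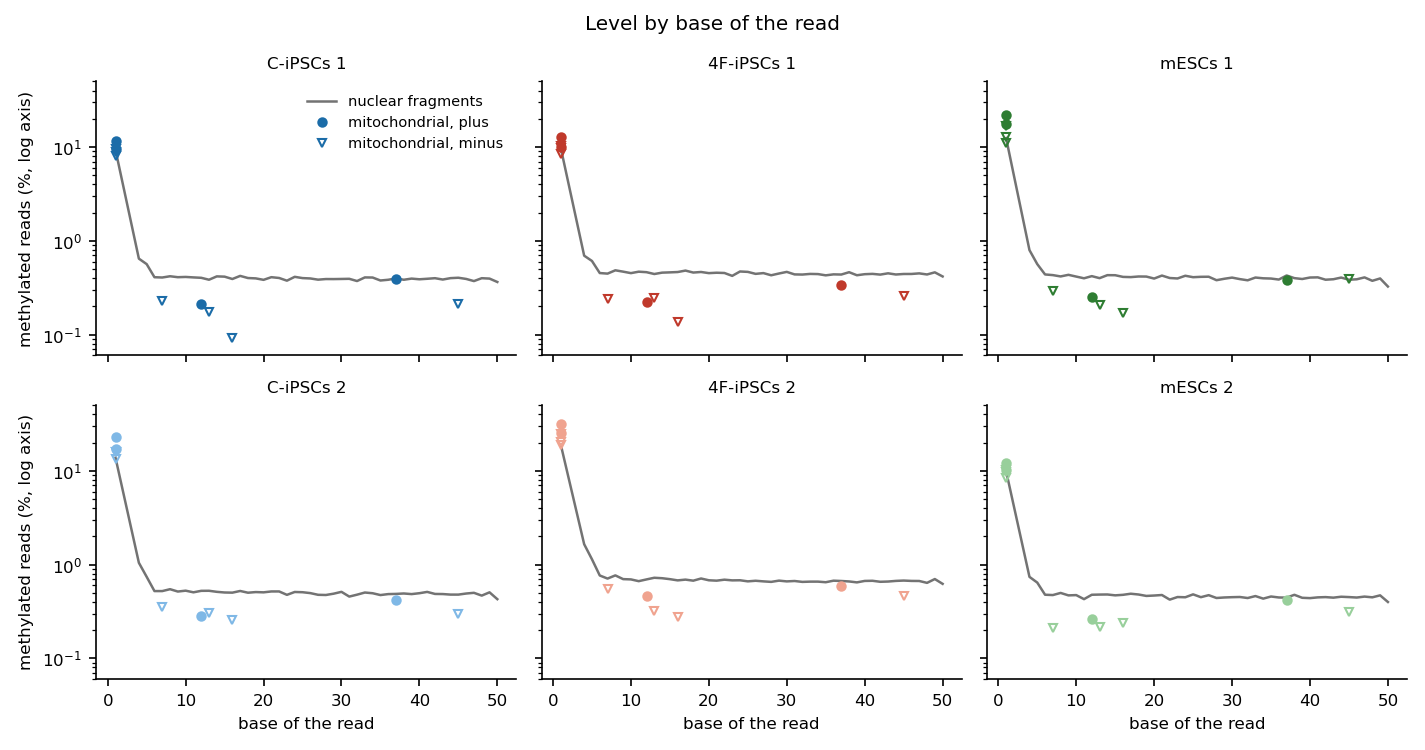
Level by base of the read in nuclear MspI fragments that were unmethylated between their sites in the other libraries (grey line, log axis), with the mitochondrial CpGs on the plus (filled) and minus strand (open) drawn at their own read base where this was at most 50 and they had at least 1000 reads. In each library both fall from the first base, and the mitochondrial CpGs beyond it and up to base 50 lie below the line at 35 of 36 points.

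The site CpGs were also compared at equal fragment length. Among nuclear fragments within 2 bp of 68 bp (2454 to 2518 per library), the first site CpG on the plus strand was at 9.63%, 14.4%, 10.3%, 20.1%, 13.5%, and 10.4%, against 9.54%, 17.1%, 9.90%, 25.5%, 17.8%, and 10.2% at CpG 3333. Hence CpG 3333 was above them in C-iPSC replicate 2, 4F-iPSC replicate 2, and mESC replicate 1 and slightly below them in the other 3. Among those within 2 bp of 114 bp (1029 to 1051), it was at 8.40%, 12.2%, 9.09%, 16.8%, 10.5%, and 9.09%, and CpG 6275 on the plus strand was above them in all 6. On the minus strand, CpG 3401 at the other end of the 68-bp fragment was above the nuclear sites in the same 3 libraries as CpG 3333, and CpG 6389 in all 6. CpG 6275 on the minus strand, which ends the 162-bp fragment, was above the sites of 74 to 77 nuclear fragments of its length in 5 of 6 libraries (13.2% against 8.91% in C-iPSC replicate 2, 8.34% against 8.58% in 4F-iPSC replicate 1, which was the exception), although it was below the nuclear fragments of all lengths in all 6. Its order against nuclear sites thus turned with the fragment length. CpG 6113 on the plus strand, with at most 53 reads per library, was above the nuclear sites of this length in 5 of 6 libraries.

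Mitochondrial and nuclear levels were also compared across the libraries. For all 12 CpGs against the single CpGs under 1%, Pearson's r over 6 libraries was 0.791 (exact permutation p = 0.0597, adjusted over 4 relations 0.0597) and Spearman's rho 0.429 (exact permutation p = 0.419), so this relation did not pass 0.05. The relations below, which separate sites from the rest, were added after the data had been seen. At the sites r was 0.988 (exact permutation p = 0.00278, adjusted 0.0111) and rho 0.943 (exact permutation p = 0.0167, adjusted 0.0333), and without C-iPSC replicate 2 and 4F-iPSC replicate 2, the libraries farthest from the median, r was 0.994. Of the libraries then left, mESC replicate 1 lay apart, at 12.5% in nuclear fragments and 16.8% in mtDNA. The others were at 9.31% to 9.93% and 9.65% to 10.3%, so the value of 0.994 rested largely on mESC replicate 1. Between sites r was 0.966 (exact permutation p = 0.0125, adjusted 0.0250) with rho 0.943 (exact permutation p = 0.0167), but without C-iPSC replicate 1 and 4F-iPSC replicate 2 it was 0.549, so that the relation rested on those libraries. Within mtDNA, the level between sites on that at the sites had r = 0.892 (exact permutation p = 0.0194, adjusted 0.0259) and rho = 0.829 (exact permutation p = 0.0583), and 0.531 without C-iPSC replicate 1 and 4F-iPSC replicate 2. No library preparation date or lane is given in the labels, so no batch could be separated.

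Agreement of the libraries was described over the CpGs, which share their libraries and are not independent, and over the 12 it largely reflects the contrast of site and other CpGs. Pearson's r over the 12 CpGs ranged from 0.502 to 0.993 in the 3 pairs of replicates and from 0.669 to 0.995 in the 12 pairs of different cell types. Without CpG 6113, the only one under 30 reads in a library, all 15 pairs were between 0.986 and 1.000. Over the 7 CpGs between sites alone r was 0.814 to 0.976 in replicates and 0.842 to 0.994 between cell types. Over the 5 site CpGs alone it was -0.953 to 0.856 in replicates and -0.958 to 0.991 between cell types, and all 5 negative values were pairs with C-iPSC replicate 1, in which CpG 6113 had 0 of 29 reads methylated. The replicates of a cell type differed at a site CpG by 6.41 to 36.4 percentage points in C-iPSCs, 10.1 to 16.6 in 4F-iPSCs, and 2.60 to 11.2 in mESCs, and by at most 0.444 percentage points between sites.

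The mitochondrial fragments were read far more often than nuclear ones of the same length. At the plus end of the 68-bp fragment, a library had 324 to 839 times the median count of autosomal fragments within 2 bp of that length, and at the minus end 208 to 571 times. The 114-bp fragment had 302 to 792 and 308 to 787 times the median on the plus and minus strand, and the 162-bp fragment 360 to 855 times on the minus strand but 1.32 to 4.00 times on the plus strand. In all of these ends except the plus strand of the 162-bp fragment, C-iPSC replicate 2 had the highest and 4F-iPSC replicate 2 the lowest ratio. Copy number, capture, and amplification cannot be told apart in this ratio.

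Last, the nuclear genes that serve mitochondrial DNA were examined at their promoters. The list of mtDNA maintenance genes holds the transcription factor Tfam, the DNA polymerase subunit Polg2, the RNA polymerase Polrmt, the helicase Twnk, and others, and 400 CpGs within 250 bp of the starts of 17 of its 20 genes had the required reads. Their level between sites was 0.371% to 0.676% across libraries and 8.61% to 19.9% at MspI sites, much as in unmethylated fragments. Of 15 genes with at least 5 CpGs between sites, 14 were under 1% over the 6 libraries. The highest were Top1mt (1.18%), Mgme1 (0.706%), and Ssbp1 (0.705%), which encode the mitochondrial topoisomerase, an exonuclease, and the single-stranded DNA-binding protein, and the lowest were Tefm (0.155%), Rnaseh1 (0.269%), and Twnk (0.357%). No CpG of the list was called by the study's rule or by the quasi-binomial model in any of the 3 comparisons, against 2.40%, 13.7%, and 1.03% of all CpGs by the first and 6.46%, 28.7%, and 2.76% by the second. By Fisher's exact test with a difference over 0.1, 2, 4, and 2 CpGs were called (0.500%, 1.00%, and 0.500%, against 24.8%, 35.7%, and 19.3% of all CpGs), both lower in C-iPSCs than in mESCs in the first comparison and all higher in 4F-iPSCs in the others.

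Promoters of nuclear subunits of oxidative phosphorylation had a joint level between sites of 1.27% to 3.05% across libraries over 80 genes, above that of the maintenance list in each library. Of the 61 genes with at least 5 CpGs between sites, 57 were under 1%, with a median of 0.431%. The median over genes was 0.433% in the maintenance list and 0.437% in the housekeeping list, so a typical gene was no higher here. The exceptions in the list were led by Ndufs6b (43.6%, libraries from 19.7% to 62.3%), Ndufs6 (12.4%, 0.342% to 22.3%), and Ndufc2 (8.83%, 3.87% to 14.3%), all named for subunits of complex I, and the lowest were Ndufa9 (0.181%), Cox6b1 (0.204%), and Ndufa8 (0.248%). Of 1328 CpGs, 1, 12, and 1 were strong calls in the 3 comparisons (0.0753%, 0.904%, and 0.0753%, below the shares over all CpGs given above), each of them higher in the cell type named first. The quasi-binomial model called 11, 33, and 4 of them (0.828%, 2.48%, and 0.301%, against 6.46%, 28.7%, and 2.76% of all CpGs). Of these 0, 1, and 1 were lower in that cell type. Fisher's exact test with a difference over 0.1 called 42, 45, and 37 (3.16%, 3.39%, and 2.79%, against 24.8%, 35.7%, and 19.3% of all CpGs), of which 6, 2, and 3 were lower. For CpGs of housekeeping promoters the shares were 1.37%, 2.15%, and 0.391% by the model and 2.15%, 3.91%, and 2.74% by this test.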

How the data were processed

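DNA of the 6 libraries was cut with MspI, size-selected, bisulfite-converted, and sequenced as 50-base pairs. The authors aligned pairs to mm10 with BSMAP 2.90, kept unique pairs, and used MOABS. Per library they deposited, for each CpG, the counts of all and of methylated reads, together and by strand, and the methylated fraction, which was used only as a check of the counts. Nothing was normalized, and no trimming or conversion filter is given in the sources used here.

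The mitochondrial CpGs and all lists were chosen with earlier results of these data known. Levels are methylated counts over all counts of a set. Wilson 95% intervals, exact permutation tests over libraries, Fisher's exact test (scipy 1.17.1), and a quasi-binomial model with limma 3.58.1 (R 4.3.3) were used, tested on simulated data. Comparisons use CpGs with at least 10 reads in each library. HCPs have a 500-bp window with over 55% GC and an observed to expected CpG ratio over 0.75 near the start (GENCODE vM21). Nuclear copies were searched with BLAST 2.17.0+ in GRCm38. Alternatives were other read minima, means over CpGs, other nuclear references, and libraries left out; those that separate MspI sites, the fragments, each CpG's own dispersion, equal strand shares, a crossed pairing, and Gpi1 left out were added after the data had been seen. The CpGs named are all 12, and of promoter lists the 3 highest and 3 lowest genes with at least 5 CpGs between sites, a minimum added after the data had been seen.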

Additional observations from a re-analysis of the deposited data

How the results depend on the processing

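Depth limits CpG 6113 and the plus strand of the 162-bp fragment, which had at most 53 reads per library. The smallest permutation p for 2 libraries against 2 is 0.333, and for the sign-flip test over 5 libraries, with 1 left out, it is 0.0625.

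Against HCP CpGs the 12 CpGs turned from 2.01 percentage points higher to -2.38 without members in MspI sites, to -0.886 when such CpGs were left out on both sides, and to -0.216 against housekeeping promoters (2.20 without Gpi1), and with only MspI sites the difference was 1.64 with no call. Against unmethylated nuclear CpGs the difference turned to -0.122 without members in sites and to -0.135 against nuclear fragments between sites. Both nuclear sets allowed levels under 1%, and a stricter limit on single CpGs narrowed the gap between sites. The strand difference was 0.0301 without the 162-bp fragment and the sites, with no call, and 0.975 with each CpG at the same share on both strands. With each CpG counting once, the differences were 14.8 for the strands, 4.04 against HCP CpGs, and 6.22 against unmethylated nuclear CpGs. Leaving out 1 library gave 1.43 to 1.77 percentage points for the strands, 1.70 to 2.36 against HCP CpGs, and 3.63 to 4.57 against unmethylated nuclear CpGs. For the cell types it gave -1.23 to 1.04 (C-iPSCs minus mESCs), -1.01 to 3.56 (4F-iPSCs minus mESCs), and -0.914 to 3.65 (4F-iPSCs minus C-iPSCs). The correlation with the nuclear level passed 0.05 at the sites alone (0.988) and between sites alone (0.966), and the lowest correlation of 15 pairs of libraries moved to 0.986 at 30 reads. The cause was not tested.

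Calls by the quasi-binomial model (1, 4, and 2 in that order of cell types) became 0, 0, and 0 with each CpG's own dispersion. With an adjusted Fisher's test they became 2, 6, and 4, against 20.5%, 34.9%, and 16.6% of all CpGs. Leaving out 1 library gave 3 to 4, 3 to 8 (8 without 4F-iPSC replicate 1), and 1 to 4 (1 without C-iPSC replicate 1, 4 without any of the other 3). The lone library was assumed to vary like the others. Shares over all CpGs were not available with 1 library left out, so those counts are no support for a difference. Replicate numbers are not said to pair the libraries. Replicate differences over all CpGs correlated at 0.118 (C-iPSCs with 4F-iPSCs), 0.0410 (C-iPSCs with mESCs), and -0.226 (4F-iPSCs with mESCs). With the replicate block the cell type differences were -0.0942, 1.27, and 1.37, the same by construction, so they are no check of the pairing. The calls were 0, 4, and 4 (9.05%, 25.2%, and 5.56% of all CpGs). A crossed pairing, chosen after the data had been seen, set the libraries with high sites beside each other. It gave more calls for 4F-iPSCs against mESCs. Its share over all CpGs was not available, so this is no support for a difference. The strong calls were 0 under every alternative run, including the Cochran-Mantel-Haenszel test with the replicate block. With all libraries, the largest difference in size was -3.17 percentage points (CpG 6113, 4F-iPSCs minus C-iPSCs). No change of test could thus pass the size limit, and these counts are no check of the result.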
